A study of Oryza sativa with 8 samples.

Results

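The comparison described here is that of rice root tips given calcium and ethylene with root tips given calcium alone, 2 libraries against 2 of a series of 8. Its members were chosen by their treatment labels: calcium and ethylene replicates 2 and 3, and calcium replicates 1 and 2. All libraries came from roots of the variety Dongjin, whose seeds germinated in darkness for 2 days at 37 °C before 3 days of dark culture at 28 °C in sealed boxes. The calcium and ethylene group received 2 ppm ethylene and a calcium chloride supply, and the calcium group received the calcium supply without ethylene. The ethylene group (2 ppm, replicates 3 and 4) and the control group (replicates 1 and 2) lack the calcium label and are used only where the same genes are read without it. The labels give no calcium chloride concentration and leave unsaid how the groups map onto the low and normal calcium of the study's design. They also do not state that replicates are separate plants, so p-values reflect library-to-library spread only, and that spread may be technical.

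Ethylene is a gaseous plant hormone. Its receptors sit in membranes of the endoplasmic reticulum and repress the pathway until ethylene binds them, after which the membrane protein EIN2 passes the signal to EIL transcription factors in the nucleus. In dark-grown rice seedlings the hormone is known for shortening roots and lengthening coleoptiles, and calcium ions are a widespread second messenger in plant cells. Whole root tips were sequenced, so fewer cells of a type and less RNA per cell cannot be told apart.

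Totals ran from 19368504 counts in calcium and ethylene replicate 3 to 23812792 counts in calcium replicate 2. Of 57359 gene IDs, 27008 had enough counts to be tested. A count was recorded for 31408 and 30649 IDs in the calcium and ethylene libraries, against 27735 and 28140 in the calcium libraries. IDs seen exactly once numbered 1456 and 1226 in the calcium and ethylene libraries, against 448 and 373 in the calcium libraries. Across genes, the log2 CPM (counts scaled to the library's total) of the libraries had a Pearson correlation of 0.964 within calcium and ethylene and 0.950 within calcium. Correlations between the groups were 0.863 to 0.882. These describe libraries over the same genes, which are not independent replicates. The deposited table pairs no ID with a gene name, and none matched the RefSeq gene table used, so genes are described by ID, length, level and chromosome number. Root marker genes could not be read for the same reason, and no sequence is shown.

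Under ethylene, transcripts changed in both directions, and the rises were the larger changes, most of all among genes of low level. Such genes were also missed more often in the calcium libraries, and the part of this in their rises was not tested. With calcium present, 2540 genes rose under ethylene, 9.4% of those tested, and 2258 fell, 8.36% of those tested, by edgeR's quasi-likelihood test at a Benjamini-Hochberg adjusted p under 0.05. The 4798 genes called made up 17.8% of the genes tested. The median log2 change was 1.60 among the rising genes, with quartiles of 1.06 and 2.71, and -1.12 among the falling genes, with quartiles of -1.45 and -0.86. For scale, the median over all genes tested was 0.01 and the median standard error (SE) was 0.33. These sizes were read in the libraries that called the genes. Genes at 0 in a group entered at a bound, taken from 3 counts summed over that group, which covers counting error only.

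The size classes show the same imbalance. Rises of at least 16-fold numbered 319, against 4 falls of that size. Of all rises, 154 were at 0 in both calcium libraries and were sized by the bound, with a median of 21.4-fold. Only 2 falls were sized so. At 8 to 16-fold 221 genes rose and 23 fell, and at 4 to 8-fold 410 rose and 85 fell. Most falls were modest, with 1290 at 2 to 4-fold and 808 at 1.5 to 2-fold, where 1039 and 524 genes rose. Tested against a 2-fold minimum in place of no change, edgeR called 245 rising and 25 falling genes at an adjusted p under 0.05, together 1% of the genes tested. Both calcium and ethylene libraries lay above both calcium libraries, or both below, in 65.1% of all genes tested and in each of the 4798 genes called, so that separation alone does not set the called genes apart. A stricter reading asked for a 2-fold gap in each of the 4 pairs of 1 library per group. Of the called genes, 1518 rising and 644 falling met it. This was counted among called genes only, so no share over all genes tested stands beside it.

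**Figure D1:**
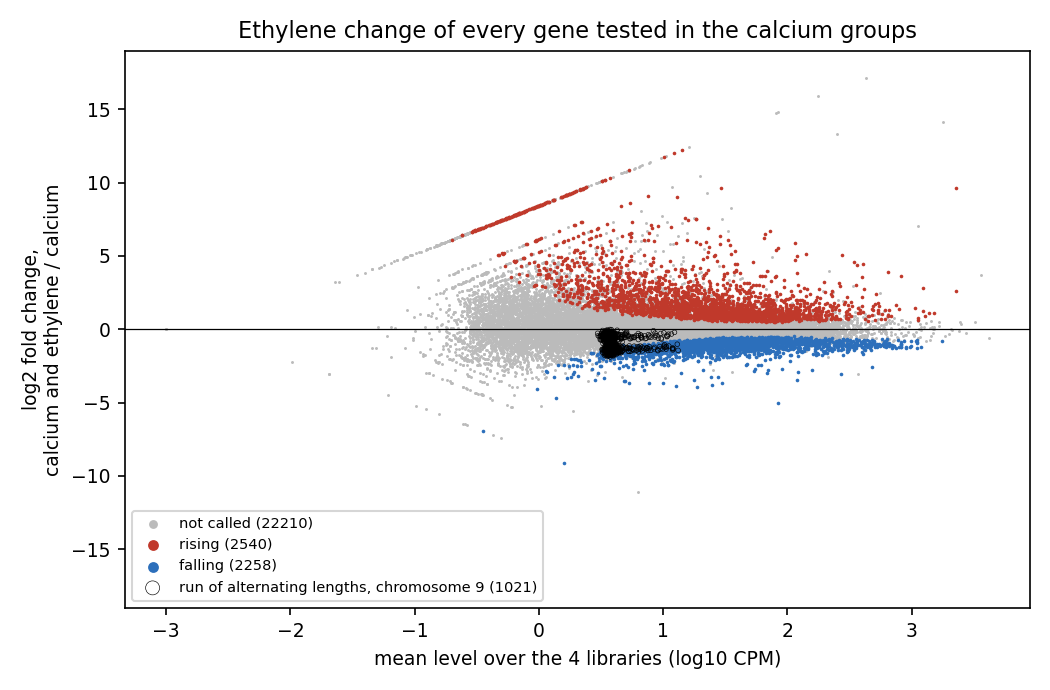
Each point is 1 of the 27008 genes tested, with the mean level over the 4 libraries on the horizontal axis (log10 CPM) and the log2 fold change of calcium and ethylene over calcium on the vertical axis. The 2540 rising genes reach larger changes than the 2258 falling genes, and the 1021 circled IDs of a run on chromosome 9 all lie below 0.

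The number of calls depended on single libraries. Dropping calcium and ethylene replicate 3 left 535, dropping calcium and ethylene replicate 2 left 1110, dropping calcium replicate 2 left 839 and dropping calcium replicate 1 left 3089. In these fits the lone library of a group takes its spread from the other groups. Calls that held in the full fit and without each of the 4 libraries in turn numbered 388, of which 323 rose and 65 fell. No called gene changed sign in any of the 17 alternative settings in which it was tested. The groups compared did not overlap in any called gene, so leaving out a library could hardly reverse a sign. Unchanged signs are therefore no measure of how stable the calls were.

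Within the groups, libraries differed less than the groups did. Among the 14204 genes of at least 10 CPM, the median log2 gap was 0.23 between the calcium and ethylene libraries and 0.24 between the calcium libraries. The median absolute log2 difference between the group means was 0.45. A gap of at least 2-fold within a group occurred in 2.40% of these genes in calcium and ethylene and in 4.45% in calcium.

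The named genes are the 2 highest rises and the 2 deepest falls among called genes that averaged 10 CPM or more, with at least 10 counts in each of the 4 libraries and groups that do not overlap. Of the called genes, 1628 rising and 1738 falling met these terms. AGIS_Os01g008970, 1222 bases long and numbered on chromosome 1, had 2970 and 6040 CPM in calcium and ethylene replicates 2 and 3, against 7.64 and 3.93 CPM in calcium replicates 1 and 2. Both calcium and ethylene libraries were far above both calcium libraries. Its means were 4505 ± 2165 CPM in calcium and ethylene and 5.78 ± 2.62 CPM in calcium (SD, n = 2 each). The log2 fold change was 9.61 with an SE of 2.48 and a 95% interval of 3.50 to 15.7 (edgeR adjusted p = 0.0494). By TPM (counts scaled by gene length and by the library's total) it ranked 6 and 4 among the genes tested in the calcium and ethylene libraries, against 13474 and 16844 in the calcium libraries. It held 0.311% and 0.585% of all counts in calcium and ethylene replicates 2 and 3. The call was lost under 8 of 17 alternatives: with RLE size factors, with no filter on low counts, and without either library of the calcium and ethylene, calcium or control groups. Adjusted p reached 0.273 without calcium replicate 2, while the log2 change stayed between 8.96 and 10.2.

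AGIS_Os09g034210, 1461 bases long and numbered on chromosome 9, had 88.5 and 196 CPM in calcium and ethylene replicates 2 and 3, against 1.85 and 0.859 CPM in calcium replicates 1 and 2. The groups again stood far apart, and the calcium and ethylene libraries differed from each other by more than 2-fold. The means were 142 ± 76.1 CPM in calcium and ethylene and 1.35 ± 0.700 CPM in calcium (SD, n = 2 each). The log2 fold change was 6.73 with an SE of 1.56 (edgeR adjusted p = 0.0363). The call was lost under 7 of 17 alternatives, which were those named for AGIS_Os01g008970 apart from RLE size factors, and adjusted p reached 0.245 without calcium replicate 2.

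AGIS_Os04g021060, 1089 bases long and numbered on chromosome 4, had 3.14 and 6.98 CPM in calcium and ethylene replicates 2 and 3, against 152 and 173 CPM in calcium replicates 1 and 2. Both calcium and ethylene libraries were low and both calcium libraries high. It averaged 5.06 ± 2.72 CPM in calcium and ethylene and 162.8 ± 14.8 CPM in calcium (SD, n = 2 each), and was 32.3-fold lower in calcium and ethylene. The log2 fold change was -5.02 with an SE of 0.49 and a 95% interval of -6.17 to -3.86 (edgeR adjusted p = 0.00415). It was the named gene whose call held in all 17 alternatives, with adjusted p up to 0.0259, and it also passed the 2-fold minimum (adjusted p = 0.0107).

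AGIS_Os11g013150, 1098 bases long and numbered on chromosome 11, had 2.09 and 2.45 CPM in calcium and ethylene replicates 2 and 3, against 18.1 and 52.2 CPM in calcium replicates 1 and 2. The calcium and ethylene libraries were close to each other, and the calcium libraries differed from each other by more than 2-fold. The log2 fold change was -3.95 with an SE of 0.82 (edgeR adjusted p = 0.0225). The call was lost under 4 of 17 alternatives. These were leaving out calcium replicate 2 (adjusted p = 0.105), calcium and ethylene replicate 2 (0.109) or calcium and ethylene replicate 3 (0.113), and having no filter on low counts (0.0818).

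**Figure D2:**
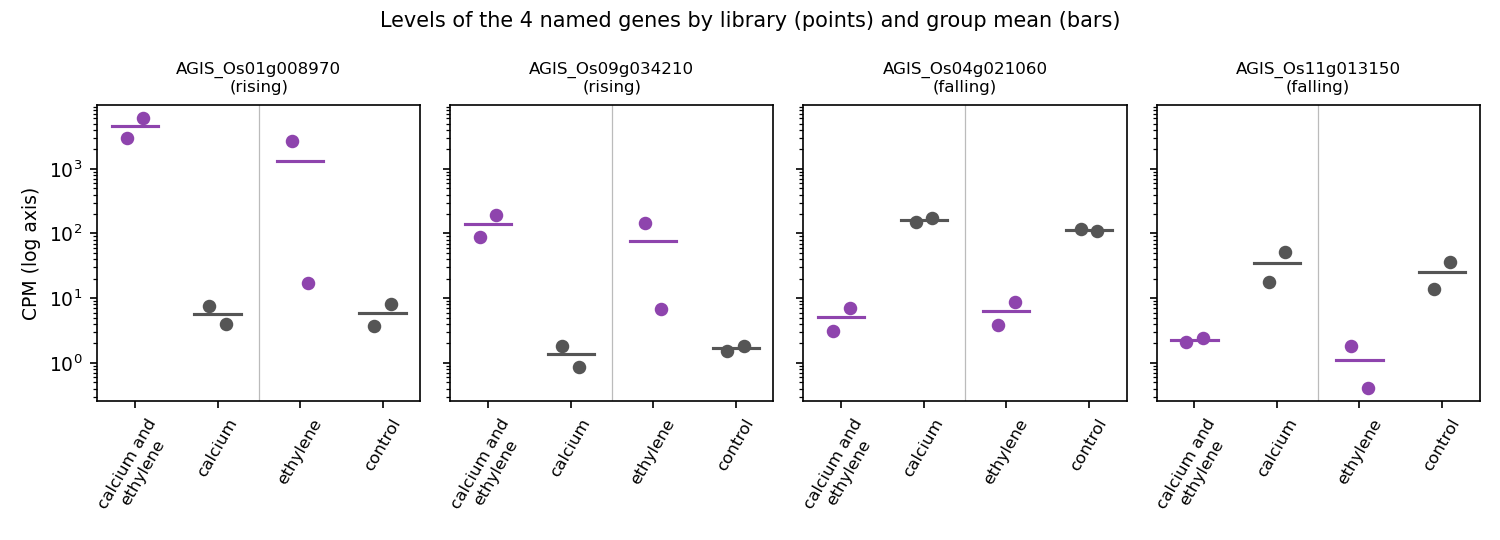
Points are the CPM of AGIS_Os01g008970, AGIS_Os09g034210, AGIS_Os04g021060 and AGIS_Os11g013150 in each library on a log axis, bars are group means of 2 libraries, and the vertical line parts the calcium groups from the groups without calcium. Ethylene replicate 4 lies close to the control libraries for AGIS_Os01g008970 and AGIS_Os09g034210.

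The genes that rose took up a larger part of the transcript pool with ethylene. They held 17.1% and 19.2% of all counts in calcium and ethylene replicates 2 and 3, against 7.35% and 6.59% in calcium replicates 1 and 2. Group means were 18.2% ± 1.43 in calcium and ethylene and 6.97% ± 0.540 in calcium (SD, n = 2 each). The genes that fell held 12.0% and 10.6% in calcium and ethylene replicates 2 and 3, against 21.7% and 25.5% in calcium replicates 1 and 2, with means of 11.3% ± 1.02 and 23.6% ± 2.71. The genes had been picked on these libraries. In the other groups, which entered the filter but not the contrast, the rising genes held 18.7% ± 0.342 in ethylene and 8.33% ± 0.359 in control, and the falling genes 9.35% ± 1.47 in ethylene and 20.8% ± 1.57 in control.

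Few genes carried much of these shares. Of the summed gain in TPM among rising genes, 94 genes made up 50%, and 5.12% came from AGIS_Os01g008970. Of the summed loss among falling genes, 129 genes made up 50%, with 1.04% from the single gene that lost most.

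By TPM, the most abundant transcripts fell more often than they rose, where 9.4% of all genes tested rose and 8.36% fell. Of the 1000 genes with the highest mean TPM over the 4 libraries, 117 rose and 301 fell, so 41.8% were called where 17.8% of all genes tested were. Of the 100 most abundant, 12 rose and 38 fell. Of the 20 most abundant, 2 rose and 6 fell. The 1000 most abundant genes held 46.2% and 49.9% of all TPM in calcium and ethylene replicates 2 and 3, against 50.3% and 51.1% in calcium replicates 1 and 2.

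Calls became more frequent with level, and their direction changed with it. At a mean of 100 CPM or more 33.5% of 1944 genes were called, and 41.1% of the called genes rose. At 10 to 100 CPM 22.3% of 12260 genes were called, of which 50.5% rose. At 1 to 10 CPM 13.2% of 9636 genes were called, of which 59.3% rose. Under 1 CPM 4.29% of 3168 genes were called, 134 rising and 2 falling. The median log2 change of all genes tested, called or not, was 0.54 under 1 CPM and 0.003 at 1 to 10 CPM. It was -0.02 at 10 to 100 CPM and -0.08 at 100 CPM or more. The run on chromosome 9 described below, with 229 falls, was left in these classes. Its entries of 3285 bases had medians of 1.68 to 6.59 CPM in the 4 libraries. Most of its falls thus count among the 518 at 1 to 10 CPM, and the share rising there without the run was not computed. At 100 CPM or more, leaving out calcium and ethylene replicate 3 brought the share called to 2.95%, leaving out replicate 2 of that group to 9.81%, and leaving out calcium replicate 2 to 4.96%. Median SEs of the log2 change were 0.20 at 100 CPM or more and 1.33 under 1 CPM.

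Genes without a count in calcium were a small share of all rises, but were sized among the large ones. At 0 in both calcium libraries were 154 of the rising genes, and at 0 in both calcium and ethylene libraries were 2 of the falling genes. The 154 genes had means of 0.399 to 28.3 CPM in calcium and ethylene, with a median of 1.44 CPM, and 4 reached 10 CPM. Against the floor of 3 counts over the calcium group, the bounds of their fold began at 5.93 and had a median of 21.4. Such genes could pass the filter on low counts only through other groups, so their rise is partly set by the choice. In the other groups, which share in that filter, 152 of the 154 had a count in both ethylene libraries and 46 were at 0 in both control libraries. Of all genes tested, 0.359% and 1.16% were at 0 in ethylene replicates 3 and 4, and 2.34% and 4.42% in control replicates 1 and 2. A count in both ethylene libraries therefore does not set the 154 genes apart. The libraries also differed in how often low genes were missed. Of the 3168 genes tested under 1 CPM, 2.46% and 4.48% were at 0 counts in calcium and ethylene replicates 2 and 3, against 25.5% and 22.5% in calcium replicates 1 and 2. The part of this difference in the low rising genes was not tested.

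Gene length went with the direction of change. The genes that rose had a median length of 1930 bases and those that fell 1530 bases, where all genes tested had 1754.5. Level was held between 10 and 100 CPM and the run on chromosome 9 described below was left out to compare 4 classes of length, cut at the quartiles of all genes tested, which were 1157.75, 1754.5 and 2494 bases. In the shortest class 7.15% of 1873 genes rose and 20.9% fell. In the second-shortest class 10.1% rose and 13.2% fell, and in the second-longest class 11.6% rose and 9.23% fell. In the longest class 14.1% of 3674 genes rose and 5.63% fell. The median log2 change was -0.26 in the shortest class and 0.11 in the longest, and the shortest class was the lower in each of the 4 pairs of a calcium and ethylene library with a calcium library.

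The libraries within the calcium and ethylene group also differed by length. Calcium and ethylene replicate 3 minus replicate 2 had a median log2 difference of 0.17 in the shortest class and -0.13 in the longest. That gap between the classes is close in size to the gap between the groups. Calcium replicate 2 minus replicate 1 gave 0.04 and -0.03. The part of library preparation or RNA quality in the length pattern was not tested. In ethylene against control the medians from shortest to longest were -0.18, -0.02, 0.03 and 0.06. Without 1 library of the 4, the share falling was 1.71% to 15.4% in the shortest class and 0.110% to 3.32% in the longest, and the share rising 1.55% to 4.74% and 2.99% to 9.31%. The lowest of these were without calcium and ethylene replicate 3. Without calcium and ethylene replicate 2 the shortest class no longer had more falls than rises, with 3.70% rising and 3.44% falling, and the median log2 change of the longest class was 0.0041.

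**Figure D3:**
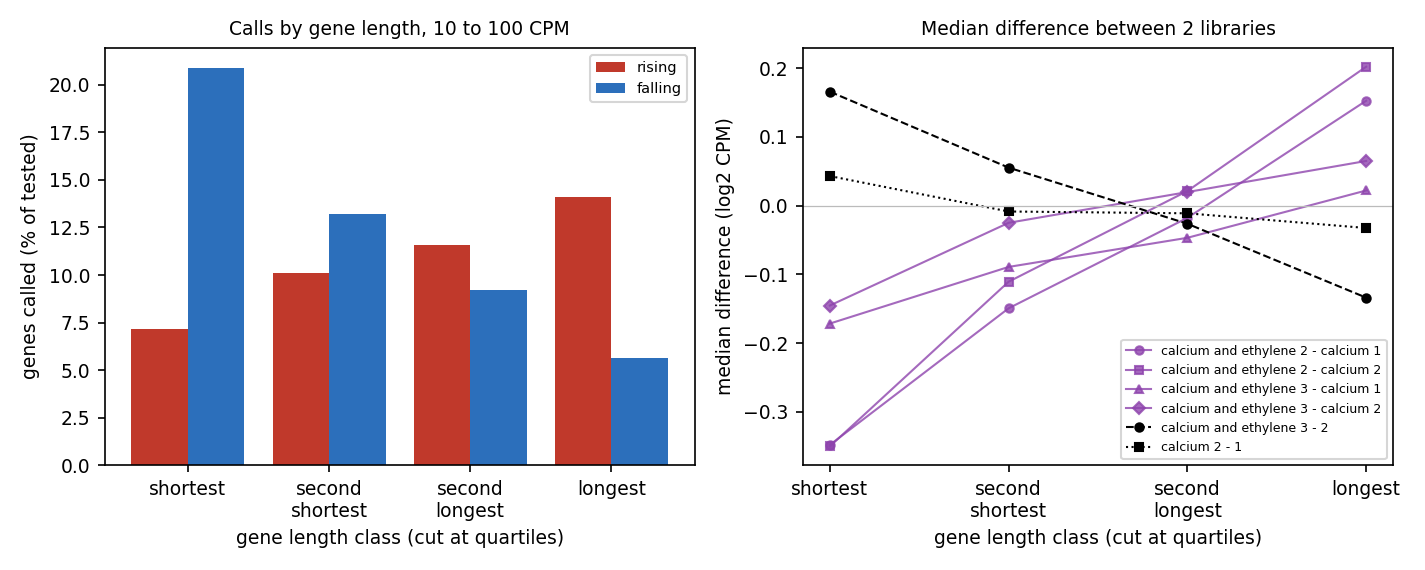
Left, bars give the share of genes called rising and falling in each class of gene length among genes of 10 to 100 CPM outside the run on chromosome 9. Right, lines give the median log2 CPM difference in each class for the 4 pairs of a calcium and ethylene library with a calcium library (purple) and for the pair of libraries within each group (black). The purple lines climb with length, more steeply for calcium and ethylene replicate 2 than for replicate 3, and the dashed black line falls.

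On chromosome 9, falls outnumbered rises. By the chromosome number written in the ID, 335 genes of chromosome 9 fell and 151 rose, or 13.5% and 6.1% of 2475 tested. On the other 11 chromosomes 6.15% to 9.47% fell and 8.66% to 10.6% rose. The median log2 change of all tested genes was -0.43 on chromosome 9 and 0.01 to 0.09 on each of the others.

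Of the 335 falls, 229 lay in a run of 1021 consecutive IDs near the start of the chromosome's numbering, whose lengths alternate between 3285 and 1774 bases. The next longest run with such alternation in the table held 6 IDs. Each of the 1021 IDs had enough counts to be tested. Whether these entries are near-identical copies was not tested, since no sequence was compared. Reads of such copies cannot be told apart, so the single entries are uncertain, and the entries of each length are also given as a sum.

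The entries of each length moved by different amounts. Of the 510 entries of 3285 bases, 229 fell and none rose, with log2 changes of -1.89 to -0.84 and a median of -1.37. All of the 510 had both calcium and ethylene libraries below both calcium libraries, as did 8561 of all 27008 genes tested. Entries that may share reads are not separate observations. Together these entries held 0.0994% and 0.144% of all counts in calcium and ethylene replicates 2 and 3, against 0.258% and 0.380% in calcium replicates 1 and 2. The groups did not overlap, and the gap within calcium was about as wide as that between the nearest libraries of the groups. The 511 entries of 1774 bases had a median log2 change of -0.47 and none was called. Of these, 288 had both calcium and ethylene libraries below both calcium libraries. The 511 entries together held 0.139% and 0.204% of all counts in calcium and ethylene replicates 2 and 3, against 0.221% and 0.268% in calcium replicates 1 and 2.

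When the entries of each length were summed to 1 feature, an alternative added after the data had been seen, the sum of the 3285-base entries fell by 1.36 on the log2 scale (SE 0.33, 95% interval -2.12 to -0.60, edgeR adjusted p = 0.0288). The sum of the 1774-base entries had a log2 change of -0.48 (SE 0.26, 95% interval -1.09 to 0.12, edgeR adjusted p = 0.228). In ethylene against control the sums had log2 changes of -0.78 (edgeR adjusted p = 0.131) and -0.45 (adjusted p = 0.258). No single entry was called falling without calcium and ethylene replicate 2, calcium and ethylene replicate 3 or calcium replicate 2. Without calcium replicate 1, control replicate 1 or control replicate 2, 146, 123 and 121 entries were called.

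Outside the run chromosome 9 was close to the others. There 151 genes rose and 106 fell of 1454 tested, or 10.4% and 7.29%, with a median log2 change of 0.04. The run made up 3.78% of all genes tested and 10.1% of all falls, so 2029 falling genes lay outside it, or 7.81% of the 25987 other genes tested.

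**Figure D4:**
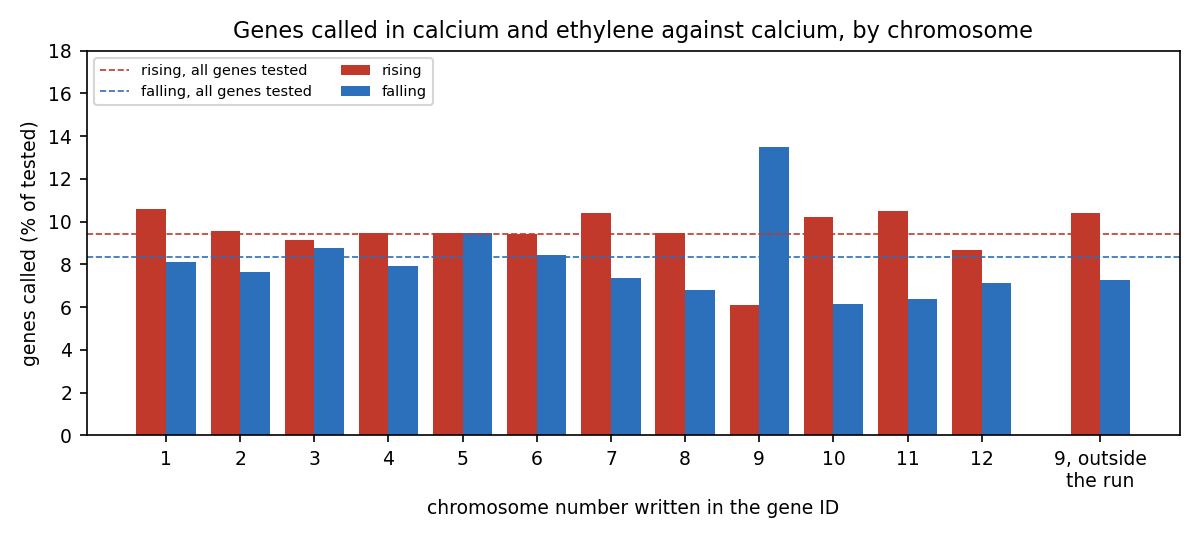
Bars give the share of tested genes called rising and falling in calcium and ethylene against calcium for each chromosome number in the gene IDs, with chromosome 9 shown once more outside the run of alternating lengths at the right. Dashed lines are the shares over all genes tested, 9.4% rising and 8.36% falling.

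The same genes were read in the ethylene and control libraries, which entered the filter on low counts, the scaling and the estimate of the spread but not the contrast that called them. Of the 4798 called genes, 4781 also passed the filter when only the 4 libraries compared were used. The rising genes had a median log2 change of 1.31 in ethylene against control, and 99.1% of them had the same sign. The falling genes had a median of -0.98 there, and 99.7% had the same sign. No same-sign share over all genes tested stands beside these shares or the later one, so they are not shown to be particular to called genes. The order of the size classes was kept. Genes that rose 2 to 4-fold with calcium had a median log2 change of 1.22 in ethylene against control, those at 4 to 8-fold 2.07, those at 8 to 16-fold 2.88 and those at 16-fold or more 4.66. For falls the medians were -1.17 at 2 to 4-fold, -2.17 at 4 to 8-fold and -2.73 at 8 to 16-fold. Medians in the calcium groups were larger in size in each class, which is where the genes had been picked. In ethylene against control itself 9.59% of the genes tested rose and 7.92% fell, and of the genes called in the calcium groups 65.7% of the rising and 66.1% of the falling were called in the same direction.

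**Figure D5:**
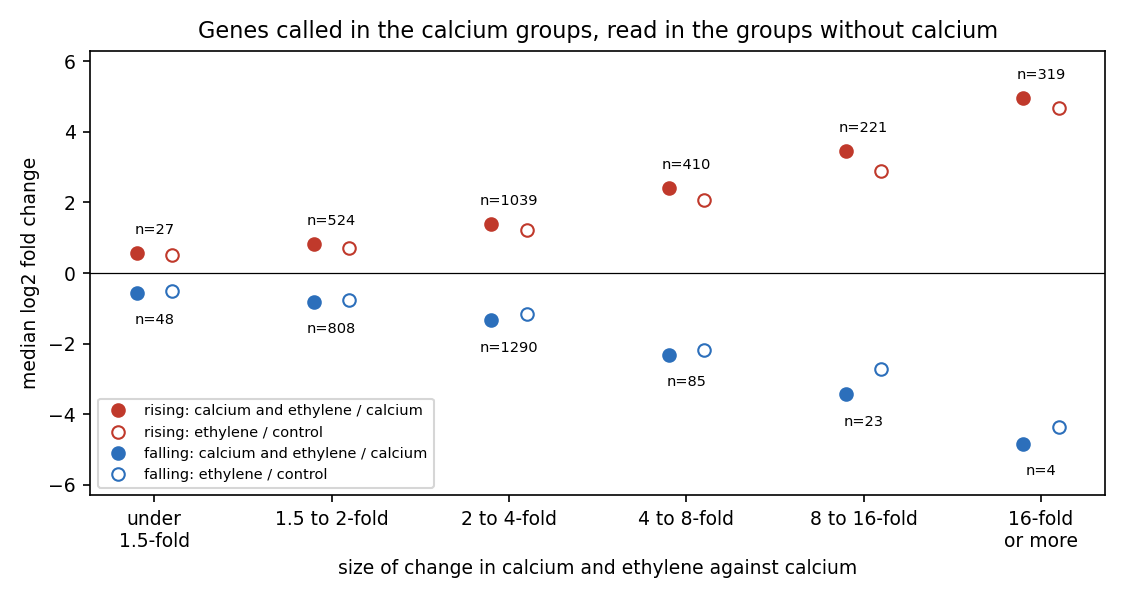
For genes called in the calcium groups, sorted into classes by the size of change, filled points give the median log2 fold change there and open points that in ethylene against control, with the number of genes in each class. Open points follow the filled ones in both directions, 1.22 beside 1.40 for rises of 2 to 4-fold and 4.66 beside 4.97 at 16-fold or more.

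In the other direction, genes called in ethylene against control separated the calcium libraries one by one. The 2589 genes that rose there had median levels of 4.71 and 4.84 log2 CPM in calcium and ethylene replicates 2 and 3, against 3.47 and 3.35 log2 CPM in calcium replicates 1 and 2. The 2138 genes that fell there had 4.64 and 4.52 log2 CPM in calcium and ethylene replicates 2 and 3, against 5.42 and 5.62 log2 CPM in calcium replicates 1 and 2. Both sets were ordered by treatment in all 4 libraries. In 95.9% of the rising and 99.1% of the falling set, the groups did not overlap in that direction. Of all 27008 genes tested, 9022 had both calcium and ethylene libraries above both calcium libraries, and 8561 had both below.

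Among the named genes, the rises varied more without calcium. The naming rule made its demands on the calcium groups only, so this difference in spread is partly set by the choice. AGIS_Os01g008970 had 2640 and 17.2 CPM in ethylene replicates 3 and 4, against 3.71 and 8.24 CPM in control replicates 1 and 2, and AGIS_Os09g034210 had 144 and 6.88 CPM against 1.52 and 1.85 CPM. Neither was called in ethylene against control by the main test (edgeR adjusted p = 0.0709 and 0.0536), and these calls turned on the setting. Over 16 alternatives AGIS_Os01g008970 was called under 3 and AGIS_Os09g034210 under 7, DESeq2 and leaving out ethylene replicate 4 among them for both. Without ethylene replicate 3 the log2 changes were 1.53 and 2.03 and neither was called (edgeR adjusted p = 0.177 and 0.0575). Each of these left-out fits rests on a single ethylene library. AGIS_Os04g021060 had 3.84 and 8.86 CPM in ethylene, against 118 and 110 CPM in control (log2 fold change -4.15, edgeR adjusted p = 0.0049). AGIS_Os11g013150 had 1.84 and 0.412 CPM in ethylene, against 13.8 and 36.7 CPM in control (log2 fold change -4.53, edgeR adjusted p = 0.0169), a call lost under 4 of 16 alternatives. These were leaving out control replicate 2 (adjusted p = 0.0893) or ethylene replicate 4 (0.0868), no filter on low counts (0.0678) and the replicate number as a block (0.0567).

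Whether the ethylene change differed with calcium was tested by the interaction in the same fit. No gene was called by edgeR, 0% of those tested, and DESeq2 called 1 gene. By edgeR 644 of the 27008 genes had an unadjusted p under 0.05, a share smaller than 0.05 itself. Of the genes called here, 1637 were not called in ethylene against control. Being called in only 1 comparison does not show a difference: 98.3% of the 1637 had the same sign in ethylene against control, and the median of their signed log2 changes was 0.70 there and 1.34 here. Among the 4798 called genes, 39.6% had a 95% interval of the difference in log2 change within 1 of 0, so differences above 2-fold remain possible for the others at this number of libraries. The interaction of AGIS_Os04g021060 was -0.87 (95% interval -2.29 to 0.55) and that of AGIS_Os01g008970 1.81 (95% interval -4.38 to 8.01), each with an edgeR adjusted p of 1. Without ethylene replicate 3, a fit that leaves ethylene replicate 4 alone in its group, 20 genes were called, and without calcium replicate 1, 1 gene.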

How the data were processed

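Whole-number counts per gene and a length per gene were used as deposited. Per the submitters' processing notes, fastp and featureCounts were used; aligner, genome build, annotation and strandedness are not stated in what was used, so overlapping, antisense or near-identical genes may share reads. None of 57359 IDs matched a RefSeq table of 39387 genes. Members, lists and naming rules were chosen with earlier results of these data known.

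The analysis ran on R 4.3.3, using edgeR 4.0.16 (with limma 3.58.1). The filterByExpr function selected genes (minimum count 10), which were normalised by TMM and fitted with 4 groups over all 8 libraries in a robust quasi-likelihood model with 4 residual degrees of freedom. CPM used TMM-scaled totals, TPM counts per length, and log2 CPM a prior count of 2. No pair of the 4 libraries agreed within counting noise (chi-square of at least 33.5 per degree of freedom). The naming rule, given where genes are named, allowed 2 rising and 2 falling IDs. Alternatives were RLE factors, DESeq2 1.42.0, other filters, only the 4 libraries compared, a replicate block and leaving out each library. Figures used Python 3.11.15 and matplotlib 3.10.9.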

Additional observations from a re-analysis of the deposited data

How the results depend on the processing

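Leaving out the run of alternating lengths, summing it to 2 features and a filter of a mean of 10 CPM were chosen after seeing the data. DESeq2 gave 3986 rising genes, 620 genes past the 2-fold minimum and 1 interaction call. No filter on low counts gave 797 past the 2-fold minimum and 1 interaction call, and the 4 libraries alone gave 1003 past it. Leaving out 1 library of the 8 gave 535 to 5707 called genes, 450 to 3218 rising, 85 to 2614 falling, 13 to 776 past the 2-fold minimum and 0 to 20 interaction calls. It gave 1.03 to 1.78 for the median signed change of the called genes in ethylene against control, which was 1.11 in the full fit. The replicate number as a block gave 1438 falling genes, 426 past the 2-fold minimum and a median of 1.39, and 2609 of its 3536 calls were among the 4798, or 54.4% of these. Calcium and calcium and ethylene share only number 2, and no label says what the numbers mean. Deviations of same-numbered libraries correlated at 0.0154 to 0.180. With 2 libraries a group the deviations mirror each other, so these values cannot decide whether the numbers mark pairs. The main fit did not treat them as pairing. The number of called genes stayed within 1.5 times under RLE factors, DESeq2, each filter, the 4 libraries alone, the block and without the run (4469 genes). Where an alternative leaves out libraries or genes, the fit has fewer of them, and for the rest the cause was not tested. No named gene reversed, but the naming rule asked for groups that do not overlap in the calcium comparison, so a reversal there was hardly possible.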
